A study of Mus musculus with 24 samples.

Results

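The genes described here encode the subunits of voltage-gated calcium channels (symbols starting with Cacn), the hyperpolarization-activated HCN channels (Hcn) and the CLC chloride channels and exchangers (Clcn). They were chosen by name: all protein-coding genes of the count table with these symbols that had at least 240 reads summed over 24 libraries of mouse striatum. The table held 39 protein-coding genes with such names among 22046 protein-coding genes (54532 genes of all kinds), and 35 reached the read minimum: 24 Cacn, 4 Hcn and 7 Clcn genes. Among the 4 genes left out, Cacna1s had 238 reads and Cacng6 had 74. The members with the fewest reads were Cacna1f with 547 and Cacng1 with 723.

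Each library came from the striatum of 1 hemisphere of a C57BL/6 mouse, and there were 6 libraries (3 male, 3 female) of each of 4 genotypes. WT mice carried neither alteration, TyrobpKO mice lacked Tyrobp, Q175 mice were heterozygous for the Q175 allele, and Q175_TyrobpKO mice were heterozygous for Q175 and lacked Tyrobp. The Q175 allele carries a lengthened CAG repeat at the endogenous Huntingtin locus and models Huntington's disease in the mouse; as a knock-in it follows that gene's own promoter. Tyrobp encodes an adaptor of microglial surface receptors, and the series asked how its deletion alters striatal expression in the presence of Q175. Age was not stated. The animal numbers of 5 WT mice and of the Q175 mice had different prefixes (WT replicate 3 shared that of Q175), while TyrobpKO and Q175_TyrobpKO mice shared a prefix, so that Q175 against WT can only in part be told apart from whatever the prefix marks. In TyrobpKO against WT and in Q175_TyrobpKO against Q175 the prefix differed in every library, so prefix and Tyrobp genotype cannot be told apart there.

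A voltage-gated calcium channel consists of a pore subunit (alpha1), which sets the channel type, with an extracellular alpha2delta subunit and a cytoplasmic beta subunit that promote its delivery to the membrane. Most genes named as gamma subunits encode transmembrane AMPA receptor regulatory proteins (TARPs), which traffic and gate AMPA-type glutamate receptors rather than calcium channels. HCN channels open on hyperpolarization and pass the pacemaker current. Of the CLC family, some members are chloride channels of the plasma membrane, and the others exchange chloride for protons in endosomes, synaptic vesicles and lysosomes. Striatal projection neurons, the main neurons of the striatum, receive glutamatergic input from cortex and thalamus and are the cells most affected in Huntington's disease.

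Library totals were 25.5 to 34.6 M counts (M, megacounts). Tyrobp stood at 6.56 to 9.89 CPM in WT and 5.69 to 11.8 in Q175, against 0.214 to 0.448 in TyrobpKO and 0.218 to 0.323 in Q175_TyrobpKO, so all 24 libraries matched their Tyrobp label. The summed level of 14 striatal projection neuron markers, in library-scaled counts (CPM), was 8240 to 13100 in WT, 7670 to 12400 in TyrobpKO, 6020 to 8170 in Q175 and 5220 to 8440 in Q175_TyrobpKO. The tissue label was thus borne by abundant markers in every library. The sum of 8 cortical excitatory neuron markers varied far more within each genotype, from 75.5 to 720 CPM in WT, 445 to 966 in TyrobpKO, 66.1 to 802 in Q175 and 53.1 to 907 in Q175_TyrobpKO. Choroid plexus markers summed to 4060 CPM in Q175 replicate 3 and to between 24.7 and 578 in the other libraries.

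In WT striatum the members spanned a wide range of RNA level per length, given as CPM per kb of gene length. Hcn2 was highest at 63.3 ± 2.56 CPM per kb (SD, n = 6), followed by the TARP genes Cacng7 at 44.4 ± 5.39 and Cacng4 at 43.9 ± 6.70, which did not differ beyond their spread. The beta subunit genes Cacnb3 (38.5 ± 3.88), Cacnb1 (36.3 ± 3.81) and Cacnb4 (36.3 ± 3.09) came next and likewise overlapped. Cacnb2 was far below them at 7.30 ± 0.877.

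Among pore subunits, the R-type gene Cacna1e was highest per length at 21.9 ± 2.07 CPM per kb in WT and the T-type gene Cacna1i followed at 19.6 ± 1.48. The P/Q-type gene Cacna1a stood at 18.3 ± 1.5, the T-type gene Cacna1h at 16.9 ± 2.22 and the N-type gene Cacna1b at 13.9 ± 0.587. The L-type genes were lower, with Cacna1c at 7.39 ± 0.763 and Cacna1d at 5.82 ± 0.365, and Cacna1f, the L-type gene known from retina, was the lowest member of all at 0.0798 ± 0.0214. Of the alpha2delta genes, Cacna2d3 led at 31.2 ± 3.87 and Cacna2d2 followed at 14.9 ± 1.27. Of the chloride genes, the exchangers Clcn4 (20.8 ± 0.814) and Clcn6 (16.7 ± 0.799) were highest, and the plasma membrane channels Clcn2 and Clcn1 stood at 7.84 ± 0.787 and 0.748 ± 0.17.

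**Figure D1:**
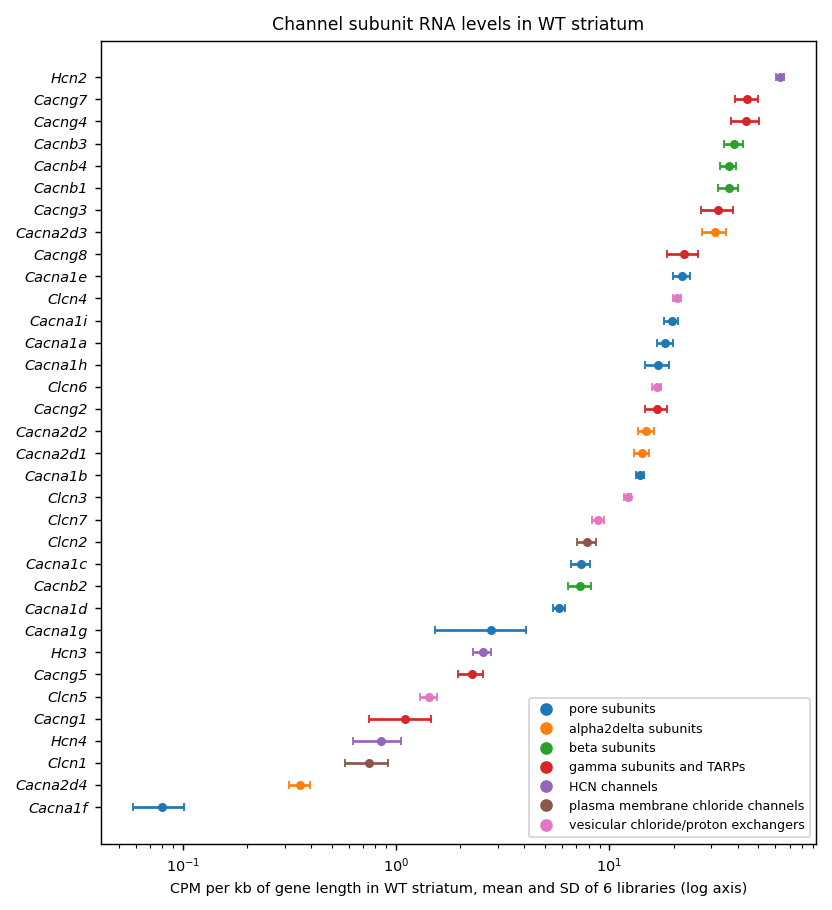
RNA level of 34 members in WT striatum, in CPM per kb of gene length on a log axis, as the mean (point) and SD (bar) of 6 libraries, coloured by role. Hcn2 lies at the top with 63.3 and Cacna1f at the bottom with 0.0798.

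The first comparison asked what the Q175 allele changed with Tyrobp present. Of the 35 members, 7 fell and 1 rose in Q175 against WT (edgeR's quasi-likelihood test, Benjamini-Hochberg adjusted p under 0.05). The genes that fell were the pore subunit gene Cacna1e, the alpha2delta gene Cacna2d3, the beta subunit genes Cacnb1 and Cacnb2, and the TARP genes Cacng2, Cacng3 and Cacng4; the lysosomal exchanger gene Clcn7 rose. For background, 9.63% of the 19667 genes tested were called in this comparison, 5.47% as lower and 4.15% as higher, and 12.9% of genes with a mean of at least 10 CPM were called. The median log2 fold change of the members was 0.01, beside 0.007 over all genes.

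The same allele without Tyrobp was examined in Q175_TyrobpKO against TyrobpKO, which shares no library with the first comparison. There 3 members fell (Cacnb2, Cacng2 and Cacng3) and 2 rose (Cacna1b and Hcn3), against a background of 5.86% of genes called, 3.08% as lower and 2.78% as higher. All 8 members called with Tyrobp present had the same sign here, and 3 of them were called, which is 37.5% of the first set and 60% of the second. Over all genes, 1838 of 1893 (97.1%) kept their sign and 783 were called in both, 41.4% of the first set and 67.9% of the second. The 8 members thus repeated at a rate near that of all genes.

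**Figure D2:**
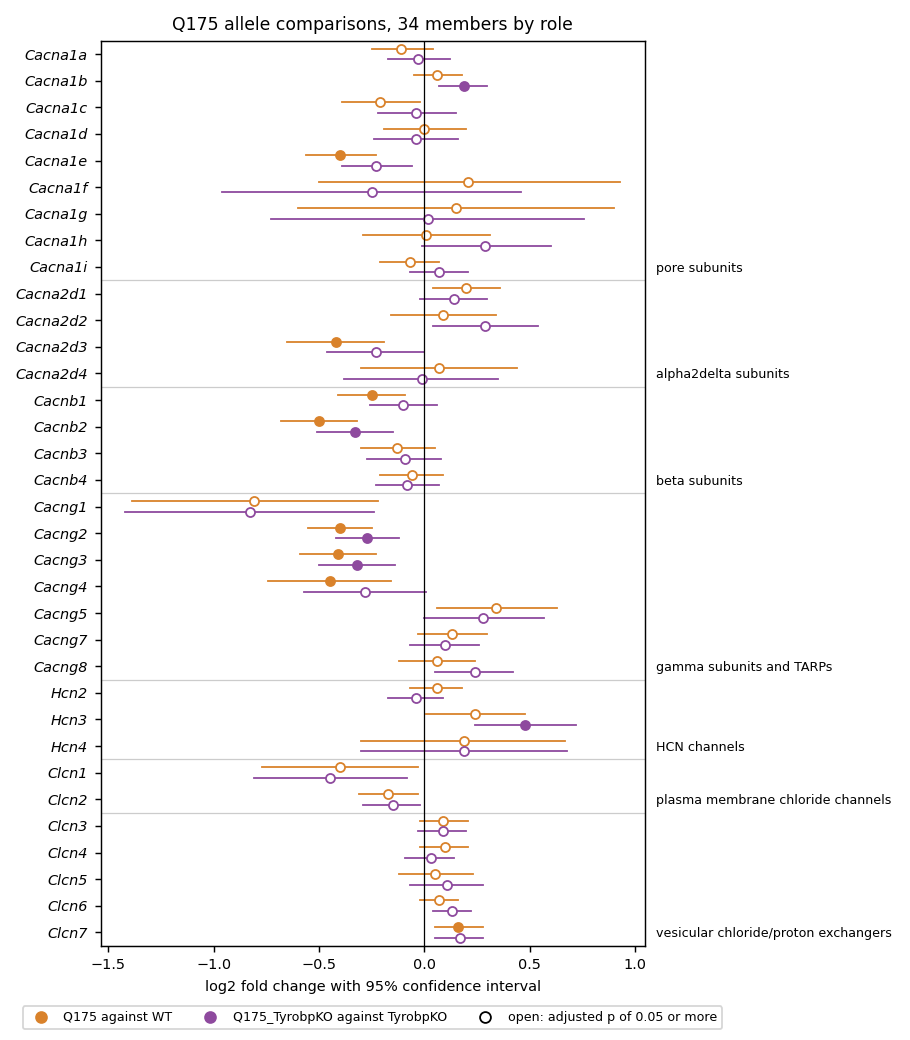
Log2 fold change with 95% confidence interval of 34 members for the Q175 allele with Tyrobp (against WT) and without it (against TyrobpKO), grouped by role. Filled points passed an adjusted p of 0.05; Cacnb2, Cacng2 and Cacng3 are filled in both comparisons and lie below 0.

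Cacna1e encodes the pore of R-type channels and was the most abundant pore gene. Its level was 468 CPM at the lowest, 550 at the median and 620 at the highest in WT, and 362, 413 and 473 in Q175. Only the highest Q175 library reached into the WT range, where it exceeded the lowest WT library alone. Cacna1e fell by 24.1% (log2 fold change -0.40 ± 0.08 SE, adjusted p = 0.00142, edgeR). In TyrobpKO it lay at 445, 498 and 634 CPM and in Q175_TyrobpKO at 407, 441 and 492, ranges that overlapped widely, with a log2 fold change of -0.23 ± 0.08 that did not pass (adjusted p = 0.0949).

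The other 8 pore genes did not pass in Q175 against WT, and Cacna1c came nearest, with a log2 fold change of -0.21 ± 0.09 (adjusted p = 0.157). Cacna1b, the N-type pore of presynaptic terminals, stood at 127, 139 and 143 CPM (lowest, median, highest) in WT and at 135, 144 and 153 in Q175, and its fold change of 0.06 ± 0.05 on the log2 scale did not pass (adjusted p = 0.546). It rose by 13.8% in Q175_TyrobpKO (148, 158 and 162 CPM) against TyrobpKO (124, 135 and 152 CPM), a log2 fold change of 0.19 ± 0.05 (adjusted p = 0.0371, edgeR). The ranges overlapped between 148 and 152 CPM. The call was lost without the filter on low counts (adjusted p = 0.0854), when only these 12 libraries were fitted (0.0654), and on leaving out any of 8 libraries, with an adjusted p of up to 0.0919.

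Cacna2d3 encodes the alpha2delta subunit of highest level per length in this tissue. WT libraries held 232, 270 and 323 CPM (lowest, median, highest) and Q175 libraries 183.3, 207 and 220, with no overlap between the groups. Groups did not overlap for 3 members in Q175 against WT, and for 4.08% of all genes. Cacna2d3 fell by 25.2%, a log2 fold change of -0.42 ± 0.11 (adjusted p = 0.0137, edgeR), and the adjusted p became 0.0524 without WT replicate 4. In TyrobpKO (184, 219 and 292 CPM) and Q175_TyrobpKO (162, 189 and 233 CPM) the ranges overlapped and the log2 fold change of -0.23 ± 0.11 did not pass (adjusted p = 0.252). Cacna2d1, another alpha2delta gene and a target of gabapentinoid drugs, had a log2 fold change of 0.20 ± 0.08 in Q175 against WT that did not pass (adjusted p = 0.104) and passed without Q175 replicate 3 (0.24, adjusted p = 0.0472).

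All 4 beta subunit genes had a log2 fold change below 0 in both Q175 comparisons, and those called were Cacnb1 and Cacnb2 with Tyrobp and Cacnb2 without it. Cacnb2 stood at 83.2, 93.5 and 114 CPM (lowest, median, highest) in WT and at 55.7, 70.6 and 76.7 in Q175, with every Q175 library below every WT library. It fell by 29.1%, a log2 fold change of -0.50 ± 0.09 (adjusted p = 0.000327, edgeR), the smallest adjusted p of the 35 members.

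Without Tyrobp, Cacnb2 stood at 76.6, 89.6 and 106 CPM in TyrobpKO and at 63.5, 72.8 and 80.7 in Q175_TyrobpKO, ranges that overlapped between 76.6 and 80.7 CPM. It fell by 20.4%, a log2 fold change of -0.33 ± 0.09 (adjusted p = 0.0205, edgeR). This call was lost on leaving out any of 5 libraries (TyrobpKO replicates 3, 5 and 6, Q175_TyrobpKO replicates 4 and 5), with an adjusted p of up to 0.0709. The annotation places 8 genes on the opposite strand within Cacnb2, and whether the counts used strand is not given in the sources used here.

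Cacnb1, which is also the beta subunit of skeletal muscle channels, stood at 139, 170 and 186 CPM (lowest, median, highest) in WT and at 127, 139 and 153 in Q175, with overlap between 139 and 153 CPM. It fell by 15.8%, a log2 fold change of -0.25 ± 0.08 (adjusted p = 0.0345, edgeR), and the call was lost on leaving out any of 8 libraries, with an adjusted p of up to 0.121. Without Tyrobp its log2 fold change was -0.10 ± 0.08 (adjusted p = 0.557), with TyrobpKO at 135, 150 and 179 CPM and Q175_TyrobpKO at 129, 143 and 158. Cacnb3 and Cacnb4 did not pass in either comparison, with adjusted p of 0.385 and 0.709 in Q175 against WT.

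Of the 7 gamma subunit and TARP genes, 3 fell in Q175 against WT and 2 of these also fell in Q175_TyrobpKO against TyrobpKO. Cacng2, or stargazin, the founding TARP, stood at 80.5, 87.9 and 111 CPM (lowest, median, highest) in WT and at 60.3, 68.1 and 79.0 in Q175, with no overlap. It fell by 24.3%, a log2 fold change of -0.40 ± 0.07 (adjusted p = 0.000471, edgeR). Without Tyrobp it stood at 80.9, 93.7 and 102 CPM in TyrobpKO and at 71.0, 76.8 and 81.6 in Q175_TyrobpKO, where 2 Q175_TyrobpKO libraries exceeded the lowest TyrobpKO library. It fell there by 17.1%, a log2 fold change of -0.27 ± 0.07 (adjusted p = 0.0234, edgeR).

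Cacng3, a TARP gene closely related to Cacng2, stood at 75.3, 82.8 and 113 CPM (lowest, median, highest) in WT and at 57.7, 68.4 and 76.2 in Q175, where a single Q175 library exceeded the lowest WT library. It fell by 24.7%, a log2 fold change of -0.41 ± 0.09 (adjusted p = 0.00216, edgeR). In TyrobpKO it stood at 76.7, 87.7 and 97.1 CPM and in Q175_TyrobpKO at 66.0, 67.6 and 75.1, without overlap, and it fell by 19.9% (log2 fold change -0.32 ± 0.09, adjusted p = 0.0243, edgeR). The second call was lost on leaving out any of 7 libraries for Cacng3 (adjusted p up to 0.0766) and any of 5 for Cacng2 (up to 0.0672). Groups did not overlap for 4 members in Q175_TyrobpKO against TyrobpKO, and the share of all genes was not computed for this comparison. They were Cacng3, Hcn3, Cacng8 and Clcn6, of which Cacng8 and Clcn6 were not called (adjusted p = 0.117 and 0.0746, edgeR).

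Cacng4, a TARP gene among the most abundant members per length, stood at 124, 154 and 186 CPM (lowest, median, highest) in WT and at 105, 114 and 131 in Q175. A single Q175 library exceeded the lowest WT library, and Cacng4 fell by 26.8% (log2 fold change -0.45 ± 0.14, adjusted p = 0.0409, edgeR). The call was lost without the filter on low counts (adjusted p = 0.0868) and on leaving out any of 11 libraries, with an adjusted p of up to 0.112. In TyrobpKO (97.8, 134 and 169 CPM) and Q175_TyrobpKO (87.5, 112 and 130 CPM) the log2 fold change of -0.28 ± 0.14 did not pass (adjusted p = 0.288).

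The remaining TARP genes did not share this direction. Cacng7 had a log2 fold change of 0.13 ± 0.08 in Q175 against WT (adjusted p = 0.343), Cacng8 of 0.06 ± 0.09 (0.746) and Cacng5 of 0.34 ± 0.14 (0.114), none of which passed. Cacng5 passed without Q175 replicate 4 (0.46, adjusted p = 0.0155). Cacng1, the gamma subunit of skeletal muscle channels, was near the detection limit, at 0.980 to 1.92 CPM in WT and 0.389 to 1.01 in Q175. Its log2 fold change of -0.81 ± 0.28 did not pass with edgeR (adjusted p = 0.068) and passed with DESeq2 (0.0411) and without Q175 replicate 1 (0.0316).

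**Figure D3:**
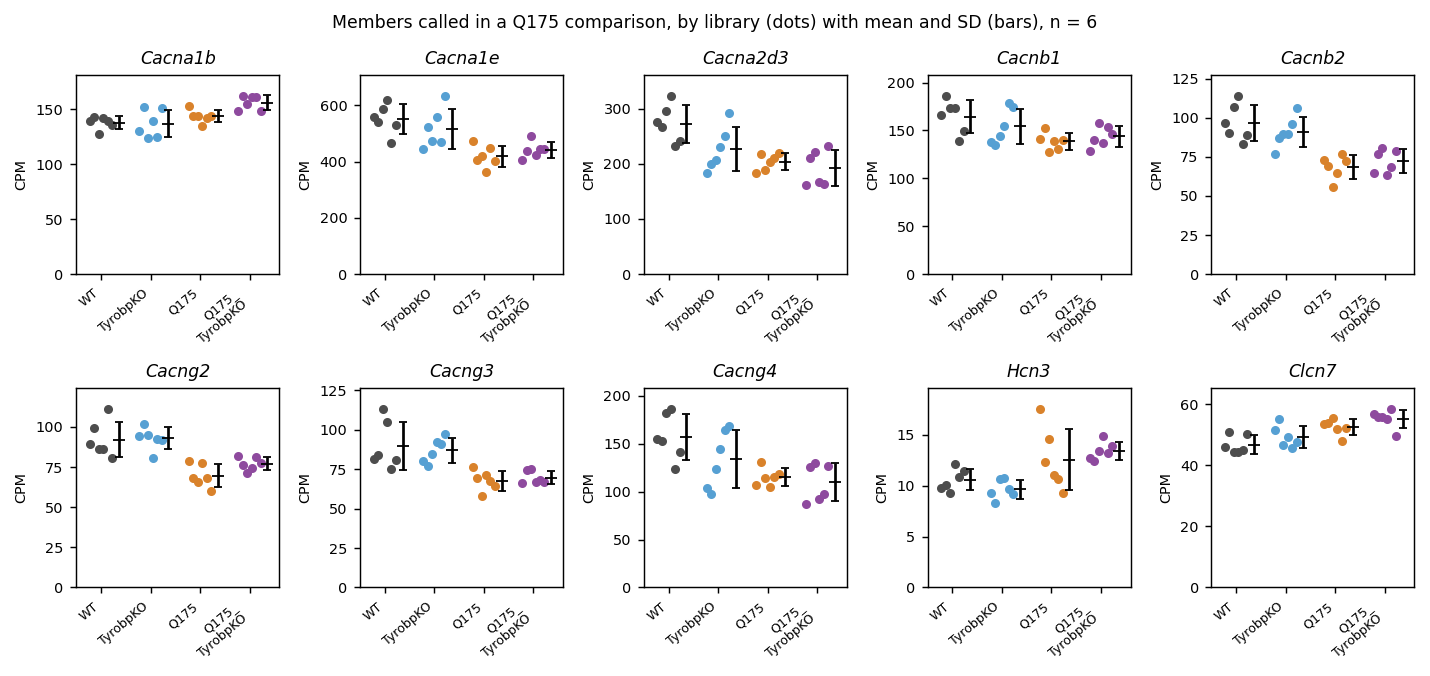
CPM in each of 24 libraries (dots) for the 10 members called in either Q175 comparison, by genotype, with the mean and SD of 6 libraries beside them; every axis starts at 0. The Q175 libraries of Cacnb2, Cacng2 and Cacna2d3 all lie below the WT libraries.

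With all libraries fitted, 0 of 4 HCN genes were called in Q175 against WT. Hcn2, the member of highest level per length, stood at 192, 200 and 215 CPM (lowest, median, highest) in WT and at 187, 213 and 230 in Q175, and the 95% interval of its log2 fold change ran from -0.07 to 0.18. Hcn3 rose by 39.4% in Q175_TyrobpKO (12.4, 13.3 and 14.9 CPM) against TyrobpKO (8.34, 9.46 and 10.7 CPM). Its log2 fold change was 0.48 ± 0.11 (adjusted p = 0.00946, edgeR). It was among the 4 members whose groups did not overlap there, a share not computed over all genes. With Tyrobp present it stood at 9.31, 10.5 and 12.1 CPM in WT and at 9.32, 11.7 and 17.5 in Q175, overlapping widely, and its log2 fold change of 0.24 ± 0.11 did not pass (adjusted p = 0.197). That value differed between the sexes fitted alone: Hcn3 passed in males (log2 fold change 0.60, adjusted p = 0.0198, edgeR) and had -0.14 in females (0.703). Hcn3 overlaps Pklr on the opposite strand, so reads of the 2 genes cannot be told apart if strand was not used.

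Of the chloride genes, Clcn7, a lysosomal exchanger, was the only member called in Q175 against WT. It stood at 44.2, 45.4 and 51.0 CPM (lowest, median, highest) in WT and at 47.9, 52.9 and 55.4 in Q175, with overlap between 47.9 and 51.0 CPM. Clcn7 rose by 12.1% (log2 fold change 0.16 ± 0.05, adjusted p = 0.0487, edgeR), close to the threshold. The call was lost with another scaling (RLE size factors, adjusted p = 0.0518), without the filter on low counts (0.193), without the sex term (0.0555), when only WT and Q175 were fitted (0.128) and on leaving out any of 13 libraries (up to 0.10).

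Without Tyrobp, Clcn7 had a log2 fold change of 0.17 ± 0.05 and did not pass (adjusted p = 0.063), with TyrobpKO at 45.6, 48.4 and 55.1 CPM and Q175_TyrobpKO at 49.6, 55.8 and 58.3. It passed with DESeq2 (adjusted p = 0.0431), with the cortical marker sum described further on in the fit (0.0302) and on leaving out any of 5 libraries: WT replicates 2, 3 and 6, TyrobpKO replicate 2 and Q175_TyrobpKO replicate 6 (0.0266 to 0.0482). All 5 exchanger genes had a log2 fold change above 0 in both comparisons, from 0.05 to 0.16 with Tyrobp and from 0.03 to 0.17 without it. The plasma membrane channel genes lay below 0 in both and did not pass: Clcn1 at -0.40 ± 0.18 (adjusted p = 0.163) and Clcn2 at -0.17 ± 0.07 (0.105) in Q175 against WT.

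Promoter sequences are shown for the called members whose 250 bases before a RefSeq start (build GRCm38.p6) held no base of an annotated exon: Cacna2d3 and Cacnb1, which fell, and Cacna1b and Clcn7, which rose. RefSeq starts were found for 27 of the 35 members. The windows lie at chr14:29721865-29722114 on the minus strand for Cacna2d3, chr11:98018373-98018622 on the minus strand for Cacnb1 (an internal start), chr2:24763153-24763402 on the minus strand for Cacna1b and chr17:25133141-25133390 on the plus strand for Clcn7. Capitals mark matches, on either strand, to any of 6 motifs: the GC box GGGCGG, the CRE TGACGTCA and its core TGACG, the TATA box TATAAA, the E-box CACGTG and the EGR site GCGTGGGCG. The core lies within the CRE, and the EGR site can share bases with a GC box.
Cacna2d3: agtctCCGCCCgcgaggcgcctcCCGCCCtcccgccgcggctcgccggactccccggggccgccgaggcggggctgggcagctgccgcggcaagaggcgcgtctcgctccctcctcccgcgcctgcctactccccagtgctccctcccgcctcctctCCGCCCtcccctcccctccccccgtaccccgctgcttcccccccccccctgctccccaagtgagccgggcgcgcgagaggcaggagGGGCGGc
Cacnb1: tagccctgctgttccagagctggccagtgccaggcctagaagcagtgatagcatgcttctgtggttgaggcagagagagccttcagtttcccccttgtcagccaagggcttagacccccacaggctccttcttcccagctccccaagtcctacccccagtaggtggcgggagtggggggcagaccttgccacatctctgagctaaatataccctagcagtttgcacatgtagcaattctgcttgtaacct
Cacna1b: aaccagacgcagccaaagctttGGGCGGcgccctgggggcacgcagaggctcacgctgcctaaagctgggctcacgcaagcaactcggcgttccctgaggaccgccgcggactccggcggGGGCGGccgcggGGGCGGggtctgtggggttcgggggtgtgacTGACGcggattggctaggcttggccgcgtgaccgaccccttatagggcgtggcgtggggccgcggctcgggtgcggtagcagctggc
Clcn7: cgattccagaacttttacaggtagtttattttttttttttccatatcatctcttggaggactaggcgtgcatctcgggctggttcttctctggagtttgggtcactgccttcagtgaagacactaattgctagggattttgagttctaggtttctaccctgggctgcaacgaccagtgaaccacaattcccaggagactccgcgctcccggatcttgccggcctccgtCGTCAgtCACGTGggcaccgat

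Cacna2d3 held 4 GC boxes and Cacna1b held 3 with 1 CRE core, Clcn7 held 1 CRE core and 1 E-box, and the internal Cacnb1 start held none of the 6 motifs. The upstream Cacnb1 start, whose window at chr11:98022628-98022877 held 7 exon bases and is not printed, had 5 GC boxes. Of all 32851 windows of this length, 32.7% held a GC box, 17.8% a CRE core, 12.4% a TATA box, 6.02% an E-box, 1.55% a CRE and 0.536% an EGR site. These matches are descriptions of the letters only.

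Deletion of Tyrobp changed no member past the threshold. In TyrobpKO against WT, 0 of 35 members were called by edgeR or DESeq2, beside 0.117% of all genes called by edgeR. At an unadjusted p under 0.05 (edgeR) were 2 members (Cacna2d3 and Clcn2), beside 1269 of all 19667 genes. In Q175_TyrobpKO against Q175, 0 were called by edgeR or DESeq2, beside 0.158% of all genes by edgeR. At an unadjusted p under 0.05 (edgeR) were 3 members (Cacna1a, Cacna1b and Clcn2), beside 1187 of all 19667 genes. The lowest adjusted p were 0.749 and 0.752. Clcn2, a plasma membrane chloride channel gene, had a log2 fold change of 0.15 ± 0.07 in the first and 0.17 ± 0.07 in the second.

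The Q175 effect was also compared between Tyrobp genotypes directly. The interaction called 0 of 35 members by edgeR or DESeq2, and 0% of all genes by edgeR. At an unadjusted p under 0.05 (edgeR) were 0 members, beside 707 of all 19667 genes. The calls of Cacna1b and Hcn3 without Tyrobp alone, and of Cacna1e, Cacna2d3, Cacnb1, Cacng4 and Clcn7 with Tyrobp alone, are therefore not shown to differ between Tyrobp genotypes. Nor does the missing call show that the effects were equal.

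**Figure D4:**
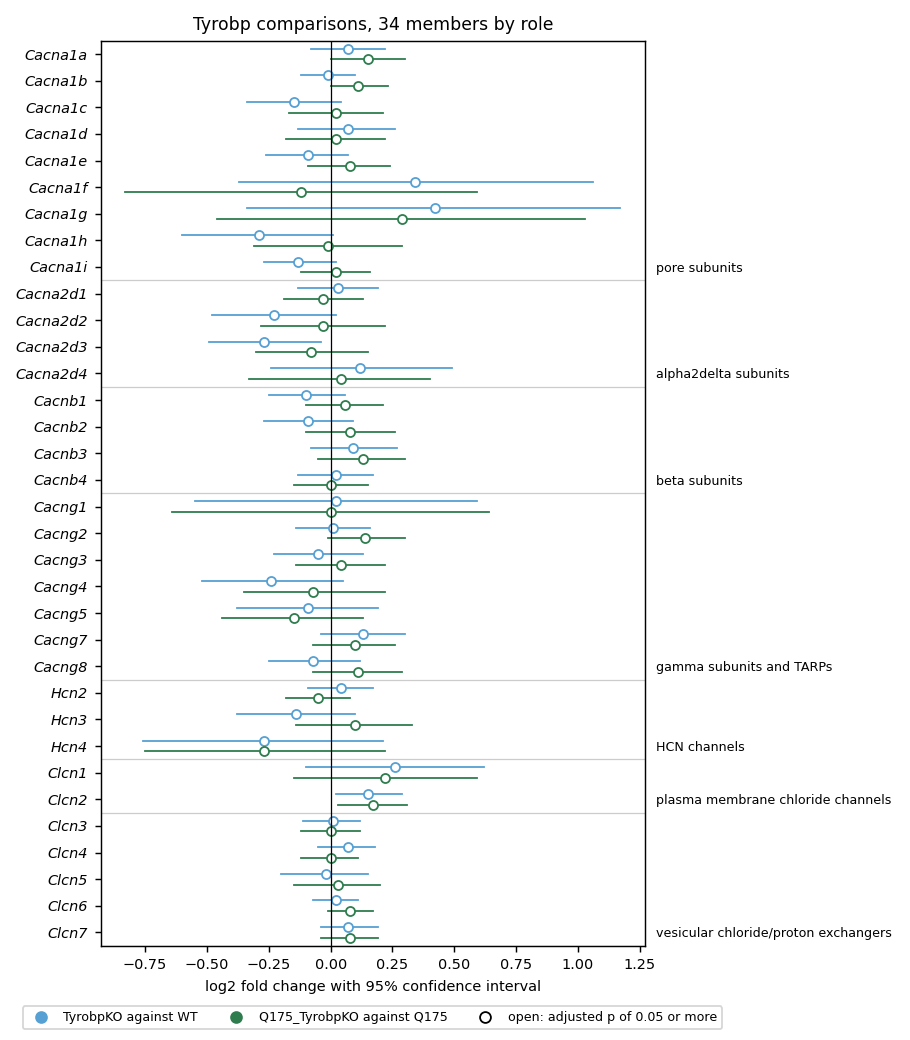
Log2 fold change with 95% confidence interval of 34 members in TyrobpKO against WT and in Q175_TyrobpKO against Q175, grouped by role. All points are open: none of these members passed an adjusted p of 0.05.

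Sex made no called difference either. In female against male, 0 of 35 members were called by edgeR or DESeq2, beside 0.0814% of all genes by edgeR. At an unadjusted p under 0.05 (edgeR) were 2 members, beside 796 of all 19667 genes. The interaction of Q175 and sex called 0 members by edgeR or DESeq2, and 0% of all genes by edgeR. At an unadjusted p under 0.05 (edgeR) were 2 members, Cacng1 and Hcn3, beside 593 of all 19667 genes. The female minus male difference of the Q175 log2 fold change, averaged over both Tyrobp genotypes, was -1.01 ± 0.35 for Cacng1 and -0.34 ± 0.12 for Hcn3 (adjusted p = 0.998 for each, edgeR). In Q175 against WT, all 7 members that fell had a log2 fold change below 0 in males alone and in females alone: Cacnb2, for instance, had -0.57 in males and -0.42 in females. Each sex alone is part of the data that gave these calls, so the shared sign is not separate support. Whether the sexes differed more without Tyrobp than with it was not tested. Without Tyrobp, the sexes fitted alone lay close for the members that rose and further apart for those that fell. Cacna1b had a log2 fold change of 0.19 in males and 0.18 in females there, and Hcn3 had 0.45 and 0.51. There Cacnb2 had -0.19 in males (adjusted p = 0.542, edgeR) and -0.47 in females (0.0651), Cacng3 -0.16 (0.672) and -0.47 (0.0323), and Cacng2 -0.35 (0.082) and -0.19 (0.547).

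Markers of cell types moved with the Q175 comparisons. Of the 14 striatal projection neuron markers, 12 fell in Q175 against WT and 6 in the comparison without Tyrobp, with a median log2 fold change of -0.72 and -0.45. In these bulk samples, fewer cells of a type and less RNA per cell cannot be told apart, and the part of the projection neuron markers in the fall of the members was not tested. Of 6 astrocyte markers, Slc1a2 fell and Gfap rose with Tyrobp present (median -0.08), and Slc1a2 and Slc1a3 fell without it (median -0.19). Their sum was 3770 to 4180 CPM in WT and 2970 to 3710 in Q175. Of 5 endothelial markers, Ly6c1 fell in the first comparison and Slco1a4 and Pecam1 in the second, with medians of -0.15 and -0.22. Of 5 oligodendrocyte markers, 0 were called in the first and 2 fell in the second (medians -0.15 and -0.31). Of 4 choroid plexus markers, Ttr rose in the first and 0 were called in the second, with medians of 2.84 and 1.78. Of 6 mural and smooth muscle markers, 0 were called in the first and 1 fell in the second. The markers named here were chosen after their values were seen, and their part in the members' changes was not tested. None of the 8 cortical markers was called in either comparison. In TyrobpKO against WT, however, all 8 had a log2 fold change above 0 (median 0.82). All 14 projection neuron markers lay below 0 there (median -0.29), and none of either list was called. TyrobpKO is the reference group of the second Q175 comparison.

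Cacna1g, a T-type pore gene, varied widely between libraries of the same genotype. It ran from 13.6 to 48.1 CPM in WT and from 16.4 to 63.2 in Q175. Cacna1g followed the summed cortical markers: in an edgeR fit with that sum added after the data were seen, it was higher by 0.44 ± 0.050 on the log2 scale per doubling of the sum (adjusted p = 1.59e-06). In all, 13 of 35 members were called for this term, 8 upward and 5 downward, beside 15.2% of all genes. The 5 downward members were Cacna1h, Cacna2d2, Cacna2d3, Cacng4 and Hcn4.

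With the cortical sum in the fit, 11 members were called with Tyrobp present and 9 without Tyrobp. Calls over all genes rose too, from 1893 to 2645 with Tyrobp and from 1153 to 1604 without it. All 8 and all 5 members called without the cortical sum were again called, among them Cacnb2 at -0.51 (adjusted p = 4.35e-05, edgeR) and -0.38 (0.00373). Those added with Tyrobp present were Cacna2d1, Cacng1 and Cacng7. Those added without Tyrobp were Cacna1e (log2 fold change -0.26, adjusted p = 0.0377, edgeR), Cacna2d3 (-0.34, 0.0061), Cacng4 (-0.41, 0.0156) and Clcn7 (0.18, 0.0302). All of these were also called with Tyrobp present. Whether cortical tissue at dissection set the level of Cacna1g was not tested.

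**Figure D5:**
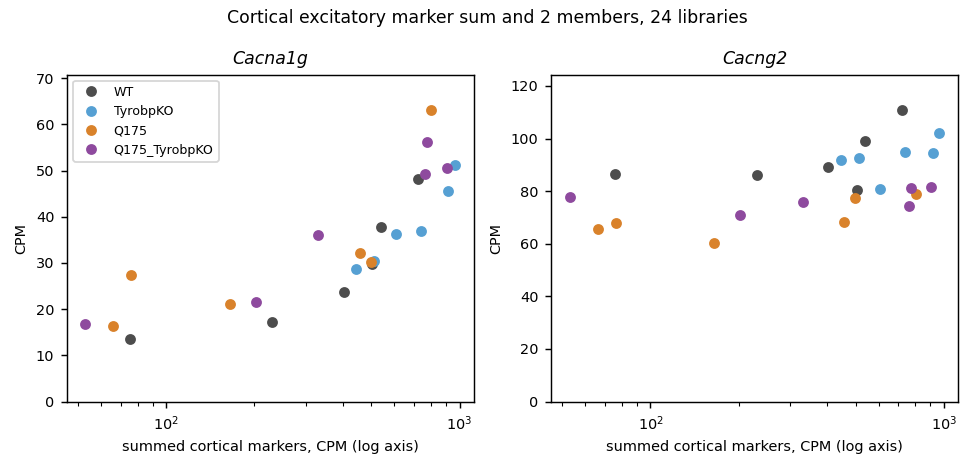
CPM of Cacna1g and Cacng2 (y axes) against the summed CPM of 8 cortical excitatory neuron markers (x axis, log scale) in 24 libraries coloured by genotype. Cacna1g is higher where the sum is higher, while Cacng2 separates Q175 from WT libraries along the whole range.

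Other genes of the same pathways were examined through lists. Of 25 regulators of voltage-gated calcium channels, 1 rose and 6 fell in Q175 against WT, and 4 fell in Q175_TyrobpKO against TyrobpKO, with median log2 fold changes of -0.19 and -0.12 (0.007 and -0.002 over all genes). In Q175 against WT, Ppp3ca, the catalytic subunit of calcineurin, had a log2 fold change of -0.49 ± 0.08 (adjusted p = 0.000174, edgeR). Camk2b, a subunit of the calcium/calmodulin-dependent kinase, had one of -0.32 ± 0.07 (0.00396). Without Tyrobp, Ppp3ca had -0.40 ± 0.08 (0.0026) and Camk2b had -0.10 ± 0.07, which did not pass (0.49). Of 14 AMPA receptor subunit and auxiliary genes other than the TARPs, 4 fell and 0 rose in the first comparison and 2 fell in the second, with medians of -0.24 and -0.15. Gsg1l, an auxiliary subunit of AMPA receptors, had a log2 fold change of -0.73 ± 0.09 (adjusted p = 2.49e-06, edgeR) in Q175 against WT. Dlg4, the scaffold PSD-95 that binds TARPs, had one of -0.31 ± 0.06 (0.00111). Without Tyrobp, Gsg1l had -0.54 ± 0.09 (0.000238) and Dlg4 had -0.17 ± 0.06, which did not pass (0.0923).

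Of 5 HCN channel partners, 0 were called in either Q175 comparison. Those of smallest p in Q175 against WT were Kcne2, with a log2 fold change of 3.15 ± 1.07 (adjusted p = 0.0703), and Pex5l, the accessory protein TRIP8b, with -0.29 ± 0.13 (0.197). Kcne2 stood at 0.213 to 0.603 CPM in WT and, in Q175, at 24 in replicate 3, 2.39 in replicate 5 and 0.310 to 0.656 in the other libraries. Those 2 libraries also had the highest choroid plexus marker sums of their genotype, 4060 and 471 CPM, against 36.8 to 73.4 in WT. Without Q175 replicate 3 the log2 fold change of Kcne2 was 0.86 ± 0.66 (adjusted p = 0.506), and without Q175 replicate 1 it passed, at 3.37 ± 1.03 (0.0451). Of 9 tested genes of chloride channel partners and other chloride pathways, 0 were called. In Q175 against WT, Lrrc8b, a subunit of the volume-regulated anion channel, had a log2 fold change of -0.19 ± 0.07 (adjusted p = 0.0997, edgeR). Slc12a2, the chloride importer NKCC1, had one of 0.18 ± 0.08 (0.175). No gene of the 4 lists was called in a Tyrobp comparison.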

How the data were processed

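The authors deposited 1 table of raw read counts per gene for 24 striatal libraries, with gene symbols, coordinates and gene length in bases. Per the submitters' processing notes, STAR, featureCounts and DESeq2 were used, without versions; the build they name, GRCh38, is a human one, while the identifiers and coordinates are mouse, and all 35 members lie at the same place in GENCODE M21 (GRCm38). Use of strand in counting is not given in the sources used here; 23 members overlap a gene on the opposite strand.

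Counts were tested with edgeR 4.0.16 in R 4.3.3 (robust quasi-likelihood test, TMM, filterByExpr on genotype with a minimum count of 10, which all 35 members passed). The model held all 24 libraries, genotype means and a sex term, with 19 residual degrees of freedom. P-values were adjusted over all 19667 genes and called under 0.05. CPM are TMM-scaled; levels per kb divide them by the deposited gene length. Alternatives were DESeq2 1.42.0, RLE size factors, no filter, no sex term, only the groups compared, each sex alone, leaving out each library and, added after the data were seen, the cortical marker sum as a covariate. All 60 pairs of same-genotype libraries differed beyond sampling noise (chi-square per gene, on average, between 6.89 and 42.6). Replicate numbers follow accession order and only name a library. Labels give 1 animal number per library. Library totals of 25.5 to 34.6 M (megacounts) limit precision for the members near 1 CPM.

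All members could be named; those called were given in full, with the 2 of highest level per length in each role and, from each list of other genes, the 2 of smallest p in Q175 against WT. Members and lists were chosen with earlier results of these data known. Values of some genes of these families are not reported here.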

Additional observations from a re-analysis of the deposited data

Results flagged for a closer look

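In 10 of 136 sets of 6 libraries (34 members in 4 genotypes), 1 library stood apart from the other 5 by Dixon's criterion at the 95% level, which sets the gap to the nearest library against the whole range. Chance alone gives such a library in about 5% of sets. In WT replicate 5, Clcn4 was high at 192 CPM (others 172.2 to 178.6) and Cacna1h was low at 125 CPM (162 to 182.5). That library also had the highest cortical marker sum of its genotype, 720 CPM, and the lowest projection neuron sum, 8240 CPM; their part was not tested. In Q175 replicate 1, Cacna1a was high at 238 CPM (173.4 to 195.8) and Cacna1g at 63.2 CPM (16.4 to 32.1), with the highest cortical sum of its genotype, 802 CPM. In Q175_TyrobpKO, Cacnb4 was high in replicate 1 at 339 CPM (298 to 311) and Cacna1a low in replicate 6 at 182.98 CPM (216 to 229); these had the highest and the lowest cortical sums of the genotype, 907 and 53.1 CPM. In TyrobpKO, Cacna1c was high in replicate 6 at 179 CPM (120 to 140), Cacng8 low in replicate 3 at 44.7 CPM (50.6 to 51.5) and Hcn2 high in replicate 5 at 253 CPM (185 to 209). Clcn2 was high in Q175 replicate 2 at 45.9 CPM (40.5 to 41.6).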

How the results depend on the processing

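The number of members called in Q175 against WT, 8 as reported, was 7 with RLE size factors, 9 with DESeq2, 6 without the filter, 7 without the sex term, 7 with only the groups compared, 6 in males alone (5 of the 8, and Hcn3) and 11 with the cortical sum; females alone gave 0 with edgeR (7 at an unadjusted p under 0.05). Leaving out each library gave 4 (without WT replicate 4) to 8. Over all genes, Q175 against WT called 1893 as reported, 1887 with RLE size factors, 2303 with DESeq2 and 1487 without the filter. It called 1945 without the sex term, 1303 with only the groups compared and 2645 with the cortical sum. Males alone gave 759, females alone 187 and the fit without WT replicate 4 gave 1588. The number of members called in Q175_TyrobpKO against TyrobpKO, 5 as reported, was 8 with DESeq2 (with Cacng1, Clcn6 and Clcn7) and 9 with the cortical sum. It was 0 in males alone (edgeR, 6 at an unadjusted p under 0.05) and 2 in females alone (Cacng3 and Cacng1). Leaving out each library gave 1 (without TyrobpKO replicate 3, TyrobpKO replicate 5 or Q175_TyrobpKO replicate 4) to 6 members. Over all genes, this comparison called 1153 as reported, 1514 with DESeq2 and 1604 with the cortical sum. Males alone gave 104 and females alone 290. Leaving out TyrobpKO replicate 3, TyrobpKO replicate 5 or Q175_TyrobpKO replicate 4 gave 841, 815 or 809. Each sex alone has 3 libraries per genotype, so fewer samples were fitted. Cacna1e, Cacnb2, Cacng2 and Cacng3 in the first comparison and Hcn3 in the second stayed called without any single library. In the comparison that called it, no called member changed sign under an alternative that was run. The Tyrobp, sex and interaction comparisons gave 0 called members under each. No paired analysis was possible because the replicate numbers were given in accession order and pair no samples.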
